A study of Homo sapiens with 24 samples.

Results

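The unfolded protein response of the endoplasmic reticulum (ER) was followed through 39 named genes in breast cancer cells in which the lactate and pyruvate transporter MCT1 was knocked down or inhibited. The genes were listed by name with earlier results of these data known. Each was read from its probe set of highest mean signal over all 24 arrays. Of the 39 genes, 37 had a probe set annotated to a single gene, and all 37 were among the 14127 genes tested. The other 2, TXNDC5 (a protein disulfide isomerase family member) and SYVN1 (the HRD1 ubiquitin ligase of ER-associated degradation), had only a probe set annotated to several genes and are given no value. The genes were set apart by role as 5 sensors and transcription factors, 9 chaperones and cochaperones, 7 foldases, 11 degradation factors and 7 proteins of translocation, export and other ER functions.

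Expression was profiled on Affymetrix arrays in 8 groups of 3. In the knockdown experiment, SUM149PT cells carried a lentiviral MCT1 shRNA or a scramble shRNA, and RNA of both groups was taken after 5 days of puromycin selection at 2 µg/ml. In the inhibitor experiment, HS578T, SUM149PT and SUM159PT cells, all established breast cancer lines, received the MCT1 inhibitor AZD3965 or its vehicle DMSO for 24 hours. The labels name a single MCT1 shRNA vector, give no dose of AZD3965 and are silent on whether the 3 arrays of a group represent separate cultures. The p-values therefore cover array-to-array spread alone, possibly a technical one. HS578T was grown in DMEM and both SUM lines in F12 with insulin, hydrocortisone and EGF, so line and medium cannot be told apart where HS578T is compared. The transcript targeted by the shRNA is not reported here, and the knockdown itself was not checked.

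Misfolded protein in the ER is sensed by 3 membrane proteins. IRE1 (gene ERN1) splices the XBP1 transcript into one that encodes an active transcription factor, PERK (EIF2AK3) phosphorylates the initiation factor eIF2 alpha and so raises translation of ATF4, and ATF6 moves to the Golgi, where proteases release its transcription factor domain. Their outputs include lumenal chaperones led by BiP (HSPA5), disulfide isomerases, and the machinery that returns misfolded proteins to the cytosol for degradation. The XBP1 branch is known for its role in triple-negative breast cancer cells. An array reads the amount of each transcript, not XBP1 splicing, eIF2 alpha phosphorylation or ATF6 cleavage, and in a bulk culture a change in every cell and a change in the share of cells cannot be told apart.

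Some epithelial and mesenchymal markers set SUM149PT apart from the other lines. CDH1 (E-cadherin) averaged 8772 signal units in SUM149PT under DMSO, against 4.26 in HS578T and 3.53 in SUM159PT. The mesenchymal gene ZEB1 averaged 86.1 units in SUM149PT, against 4895 in HS578T and 3763 in SUM159PT. Other markers under DMSO separated the lines less. Epithelial KRT18 averaged 15896 units in SUM149PT, 5629 in HS578T and 7470 in SUM159PT. Mesenchymal FN1 averaged 20367 units in SUM149PT, 25530 in HS578T and 16757 in SUM159PT. The summed signal of 3 leukocyte markers was at most 164 units on any array. All arrays shared a trimmed mean near 500.1 units. In array 3 of the scramble group the actin 3′ to 5′ signal ratio, a measure of RNA integrity, reached 53.8, where the remaining arrays had at most 2.14. For GAPDH the ratio reached 2.35 there and at most 0.948 on any other. Results of the shRNA comparison that move most with this array are given with and without it.

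The promoters of these genes carry known binding elements of the response, and their sequences are shown first because they set HSPA5, XBP1 and HERPUD1, described next, beside genes such as SDF2L1 and HYOU1. RefSeq promoter windows of 250 bases before to 50 after the start (GRCh38.p14) were found for 35 of the 39 genes, in 45 windows. The ER stress element (ERSE), CCAAT then any 9 bases then CCACG, is bound by ATF6 with NF-Y. It was present on either strand in 8 of the 35 genes, or 22.9%, against 0.0916% of the 27305 genes with a window. ERSE-II, ATTGG then any 1 base then CCACG, was present in 3 of the 35 genes, or 8.57%, against 0.0696% of all. UPRE, TGACGTGG, was present in HYOU1, TXNDC11 and TXNDC5, or 8.57%, against 0.927% of all. In HYOU1 it overlapped an ERSE-II match. The ATF4 and C/EBP composite, TGATG then any 1 base then AAT, had no match in these genes and was present in 1.22% of all. The matches to ERSE and ERSE-II follow, each with 8 bases on either side where the window allows, written along the strand of the match, with the fixed letters of the element in capitals.
CALR ERSE, chr19:12938376-12938410, minus strand: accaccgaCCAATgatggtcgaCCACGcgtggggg
CANX ERSE, chr5:179698770-179698804, plus strand: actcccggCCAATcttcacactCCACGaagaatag
CRELD2 ERSE, chr22:49918546-49918580, minus strand: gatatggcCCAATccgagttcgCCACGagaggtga
ERO1B ERSE, chr1:236282175-236282208, plus strand: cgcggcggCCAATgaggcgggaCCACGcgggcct
HSP90B1 ERSE, chr12:103930208-103930242, plus strand: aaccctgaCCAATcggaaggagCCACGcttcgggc
HSP90B1 ERSE, chr12:103930313-103930347, minus strand: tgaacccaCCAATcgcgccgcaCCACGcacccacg
HSPA5 ERSE, chr9:125241383-125241417, minus strand: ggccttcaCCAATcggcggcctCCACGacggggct
PDIA6 ERSE, chr2:10812845-10812879, minus strand: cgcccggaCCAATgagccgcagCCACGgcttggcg
XBP1 ERSE, chr22:28800595-28800629, minus strand: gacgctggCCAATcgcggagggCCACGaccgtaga
HERPUD1 ERSE-II, chr16:56932017-56932043, plus strand: ggacgccgATTGGgCCACGttgggaga
HYOU1 ERSE-II, chr11:119057266-119057292, plus strand: gcgtactcATTGGaCCACGtcccaggc
HYOU1 ERSE-II, chr11:119057372-119057398, plus strand: ggcctgggATTGGaCCACGtcacgggg
SDF2L1 ERSE-II, chr22:21642106-21642132, minus strand: gggttttgATTGGtCCACGcttccgag

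Counted from base 1 at the start, with no base 0, the match lay at bases -66 to -48 in HSPA5, -52 to -34 in XBP1 and -117 to -107 in HERPUD1. Whole windows are shown for DNAJB9, HERPUD1, XBP1 and HSPA5, members that rose with the MCT1 shRNA, along the strand of the gene and with any match in capitals. DNAJB9, which rose most, held none of the 4 elements in these letters.
DNAJB9, chr7:108569624-108569923, plus strand: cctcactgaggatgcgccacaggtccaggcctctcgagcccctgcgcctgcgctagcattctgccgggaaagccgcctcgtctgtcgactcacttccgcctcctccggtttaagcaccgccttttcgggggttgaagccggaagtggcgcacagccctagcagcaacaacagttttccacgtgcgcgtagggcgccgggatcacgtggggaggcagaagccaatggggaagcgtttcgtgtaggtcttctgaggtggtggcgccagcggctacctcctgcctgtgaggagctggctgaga
HERPUD1, chr16:56931892-56932191, plus strand: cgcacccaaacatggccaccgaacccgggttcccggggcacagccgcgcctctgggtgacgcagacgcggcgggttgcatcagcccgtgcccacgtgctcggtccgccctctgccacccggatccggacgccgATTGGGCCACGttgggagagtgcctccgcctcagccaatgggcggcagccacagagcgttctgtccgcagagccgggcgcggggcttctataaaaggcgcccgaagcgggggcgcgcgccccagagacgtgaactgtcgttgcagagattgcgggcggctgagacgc
XBP1, chr22:28800520-28800819, minus strand: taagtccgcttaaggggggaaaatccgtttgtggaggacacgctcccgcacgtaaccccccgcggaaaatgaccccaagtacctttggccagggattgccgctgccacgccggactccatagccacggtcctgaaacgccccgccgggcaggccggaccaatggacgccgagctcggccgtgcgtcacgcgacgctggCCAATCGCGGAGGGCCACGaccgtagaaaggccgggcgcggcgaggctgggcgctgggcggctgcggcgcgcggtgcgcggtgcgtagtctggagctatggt
HSPA5, chr9:125241294-125241593, minus strand: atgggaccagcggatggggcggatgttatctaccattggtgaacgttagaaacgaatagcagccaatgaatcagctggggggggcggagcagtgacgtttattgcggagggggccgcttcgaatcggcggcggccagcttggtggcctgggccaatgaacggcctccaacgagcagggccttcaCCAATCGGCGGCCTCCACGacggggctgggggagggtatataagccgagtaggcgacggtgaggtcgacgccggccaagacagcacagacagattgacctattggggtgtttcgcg

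The study asked what MCT1 contributes to the glycolytic (Warburg) phenotype of these cells, and the shRNA was its stable treatment. In SUM149PT cells with the MCT1 shRNA, 16 of the 37 genes measured rose and 2 fell against the scramble shRNA, and 19 did not pass the test (limma, adjusted p under 0.05 over all 14127 genes tested). Over all genes 7.29% rose and 7.72% fell. The median log2 fold change of the 37 genes was 0.26, against -0.0037 over all genes tested. Above 0 were 29 of the 37, against 49.4% of all genes. The genes were chosen with earlier results of these data known, so these shares are a description only. Without scramble array 3, 18 rose and 2 fell, 17 of these 20 genes were among the 18 called with it, and the median was 0.23. Fold changes are on the log2(signal + 16) scale, shRNA minus scramble, with their standard errors. When each array was centred on its own median instead, 10 of the genes rose and 2 fell, the median of the 37 was 0.15, the median over all genes moved to -0.12, and 400 genes rose and 1331 fell in all, against 1030 and 1090.

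**Figure D1:**
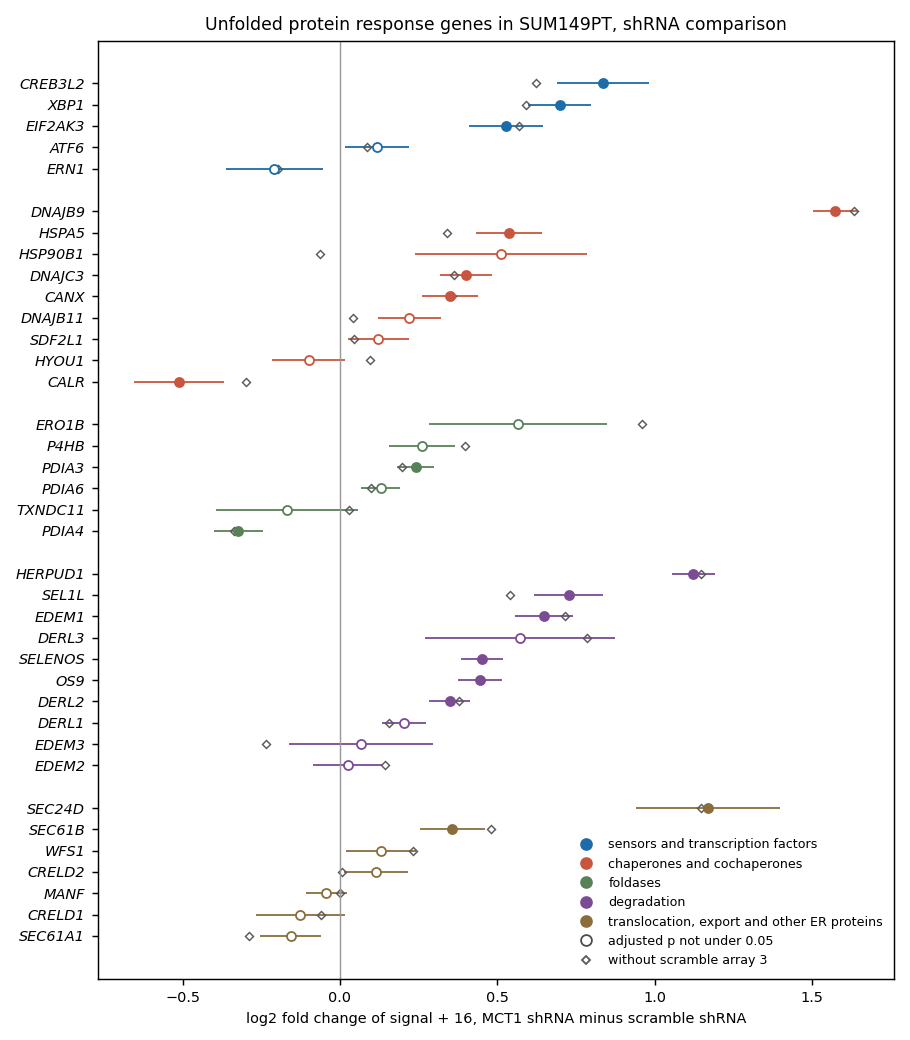
The horizontal axis is the log2 fold change of signal + 16 in SUM149PT, MCT1 shRNA minus scramble shRNA, with 1 row per gene in 5 role groups. Circles with bars are the estimate and its standard error from 3 arrays a group, filled at an adjusted p under 0.05, and diamonds are the estimate without scramble array 3. DNAJB9 at 1.57 and HERPUD1 at 1.12 lie far to the right with or without that array, while HSP90B1 moves from 0.51 with it to -0.06 without it.

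Among the sensors and transcription factors, 3 of 5 rose. XBP1, the transcription factor made active by IRE1, had 2347, 2476 and 2292 units on the MCT1 shRNA arrays, against 1530, 1611 and 1248 on the scramble arrays. Every shRNA array was above every scramble array, and the difference was 0.70 ± 0.10 (limma adjusted p = 3.32e-05). EIF2AK3, which encodes PERK, had 1727, 1495 and 1482 units with the MCT1 shRNA, against 1052, 1046 and 1143 with scramble, and again the groups did not overlap. Its difference was 0.53 ± 0.12 (limma adjusted p = 0.00317). The mean of all its probe sets gave 0.11 (limma adjusted p = 0.753), and median centring gave 0.42 (limma adjusted p = 0.0569). The only other probe set in that mean was below the signal level required for testing, at 10.8 units with the MCT1 shRNA and 16.7 with scramble. CREB3L2, an ER-anchored transcription factor related to ATF6, had 1777, 2005 and 1934 units, against 1185, 1278 and 786 units with scramble, the lowest of which was array 3. The difference was 0.83 ± 0.15 (limma adjusted p = 0.000319), and 0.62 without that array. The other 2 sensors did not pass. ERN1 had 411, 440 and 426 units with the MCT1 shRNA, all below the 525, 459 and 502 units of scramble, at -0.21 ± 0.15 (limma adjusted p = 0.415). ATF6 had 700, 615 and 661 units, against 631, 608 and 576 with scramble, groups that overlapped, at 0.12 ± 0.10 (limma adjusted p = 0.496). Dimmer probe sets of these sensors went both ways, at 0.38 and -0.02 for ERN1 and at 0.55, 0.38 and -0.28 for ATF6.

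Chaperones and cochaperones moved in both directions, with 4 of 9 higher and 1 lower. DNAJB9 (ERdj4), a cochaperone of BiP, had 3857, 4000 and 3826 units with the MCT1 shRNA, against 1287, 1201 and 1410 with scramble. This was the largest rise of the 37 genes, at 1.57 ± 0.07 (limma adjusted p = 4.98e-13). Its other probe sets moved alike, at 1.83 and 1.56. HSPA5, which encodes BiP, had 18805, 20308 and 20651 units with the MCT1 shRNA, against 15501, 15974 and 10439 with scramble. The groups did not overlap, but the lowest value was scramble array 3. Its difference was 0.54 ± 0.10 (limma adjusted p = 0.00102), and 0.34 without array 3 (limma adjusted p = 0.00193). With only these 6 arrays in the fit the adjusted p of limma for HSPA5 was 0.0823. DNAJC3 (p58IPK), another cochaperone, and CANX (calnexin), the membrane lectin chaperone, rose by smaller amounts, at 0.40 ± 0.08 and 0.35 ± 0.09. The mean of all probe sets of DNAJC3 gave 0.11 (limma adjusted p = 0.577), and CANX did not pass without MCT1 shRNA array 3 (limma adjusted p = 0.0561).

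CALR (calreticulin), the lumenal lectin chaperone, ran the other way, with 4580, 4985 and 5105 units with the MCT1 shRNA, against 7255, 4977 and 9386 with scramble. The groups overlapped, since scramble array 2 lay within the shRNA range. CALR differed by -0.51 ± 0.14 (limma adjusted p = 0.0163), and by -0.30 without scramble array 3 (limma adjusted p = 0.126). Its call was also lost without scramble array 1 (limma adjusted p = 0.0512) and without MCT1 shRNA array 1 (limma adjusted p = 0.0677). This probe set and another of CALR at -0.46 are open to cross-hybridisation, the dimmest one was at 0.48, and the mean of all 3 gave -0.16 (limma adjusted p = 0.113). SDF2L1, a partner of BiP in the lumen, had 2355, 2929 and 2651 units, against 2700, 2417 and 2173 with scramble. These overlapped, at 0.12 ± 0.10 (limma adjusted p = 0.462) and 0.04 without array 3. HYOU1, the nucleotide exchange factor of BiP, stood at -0.10, or 0.10 without scramble array 3, and DNAJB11 at 0.22. DNAJB11 was at 0.04 without scramble array 3 (limma adjusted p = 0.78) and passed at 0.36 without scramble array 2 (limma adjusted p = 0.00846). HSP90B1 (GRP94), read by a probe set of that kind too, had 3834, 3434 and 3608 units with the MCT1 shRNA, against 3608, 3977 and 1133 with scramble. Its estimate of 0.51 rested on array 3 and was -0.06 without it, while without scramble array 2 it was 0.83 (limma adjusted p = 0.0376). The part of RNA integrity in these differences was not tested beyond leaving that array out.

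Most of the foldases did not pass. PDIA3 (ERp57), the disulfide isomerase that works with calnexin and calreticulin, had 15476, 15864 and 16082 units with the MCT1 shRNA, against 13811, 13770 and 12562 with scramble, at 0.24 ± 0.06 (limma adjusted p = 0.0069). PDIA4 (ERp72) had 3862, 3980 and 4115 units, against 5019, 5044 and 4899 with scramble. Every shRNA array was below every scramble array for PDIA4, and it fell by 0.32 on the log2 scale (SE 0.08, limma adjusted p = 0.00651). P4HB, PDIA6, TXNDC11 and ERO1B, an oxidase that recharges the isomerases, lay between -0.17 for TXNDC11 and 0.57 for ERO1B. Without scramble array 3, TXNDC11 was at 0.03, P4HB at 0.40 and ERO1B at 0.96, and P4HB and ERO1B passed (limma adjusted p = 0.00807 and 0.0171). The mean of all probe sets of P4HB gave 0.87 (limma adjusted p = 8.63e-05).

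The factors of ER-associated degradation gave 6 rises among 10 and no fall, with a median of 0.45. HERPUD1, a membrane scaffold of the retrotranslocation complex, had 6655, 7216 and 7206 units with the MCT1 shRNA, against 3110, 3206 and 3335 with scramble. Its lowest shRNA array was far above its highest scramble array, and the difference was 1.12 ± 0.07 (limma adjusted p = 6.86e-11). SEL1L, the adaptor that holds substrates to the HRD1 ligase, had 1551, 1697 and 1709 units, against 1071, 1195 and 761 with scramble. SEL1L did not overlap between groups either, at 0.73 ± 0.11 (limma adjusted p = 5.94e-05) and 0.54 without scramble array 3. EDEM1, which speeds mannose trimming of misfolded glycoproteins, had 1628, 1878 and 1549 units, against 1014, 1019 and 1172 with scramble, at 0.65 ± 0.09 (limma adjusted p = 3.4e-05). SELENOS, which recruits the ATPase p97 to the membrane, the lectin OS9 and the channel protein DERL2 rose by 0.45, 0.45 and 0.35, all without overlap. The OS9 probe set is also open to cross-hybridisation, and the other one of OS9 was at 0.10. The other probe set of DERL2 was at 0.77. DERL1 at 0.20 narrowly missed (limma adjusted p = 0.0522) and passed at 0.28 without scramble array 1 (limma adjusted p = 0.0118), and EDEM2, EDEM3 and DERL3, at 0.02, 0.07 and 0.57, did not pass. EDEM3 was at -0.24 without scramble array 3.

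Of the 7 proteins of translocation, export and other functions, 2 rose. SEC24D, a cargo-binding subunit of the COPII vesicle coat, had 469, 420 and 361 units with the MCT1 shRNA, against 165, 193 and 170 with scramble. No shRNA array came near the scramble range, and the difference was 1.17 ± 0.23 (limma adjusted p = 0.00101). SEC61B, a subunit of the translocation channel, had 15256, 16000 and 19289 units, against 12080, 11940 and 15510 with scramble, groups that overlapped, at 0.36 ± 0.10 (limma adjusted p = 0.0215). SEC61B did not pass when scramble array 1, scramble array 2 or MCT1 shRNA array 3 was left out, with limma adjusted p-values of 0.0897, 0.0866 and 0.143. SEC61A1, the channel itself, was at -0.16, and the ER stress factors MANF and CRELD2 were at -0.04 and 0.12, and CRELD2 was at 0.01 without scramble array 3. WFS1, an ER membrane protein mutated in Wolfram syndrome, was at 0.13 and CRELD1 at -0.13, and these were at 0.23 and -0.06 without that array. Without scramble array 3, SEC61A1 was at -0.29 and passed as lower (limma adjusted p = 0.0306), while the mean of its probe sets was 0.22 and passed as higher (limma adjusted p = 0.0195).

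Setting the shRNA differences beside the promoters, 4 of the 11 measured genes with an ERSE or ERSE-II match rose and 1 fell, with a median of 0.35. Of the 22 measured genes with neither, 10 rose and 1 fell, with a median of 0.24. Genes with a match thus had the higher median but the smaller share of rises. Over all genes tested, 7.29% rose and 7.72% fell. With a match, XBP1, HSPA5, HERPUD1 and CANX rose and CALR fell, while SDF2L1, HYOU1, CRELD2, HSP90B1, PDIA6 and ERO1B did not pass. These counts are a description and no difference between them was tested.

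**Figure D2:**
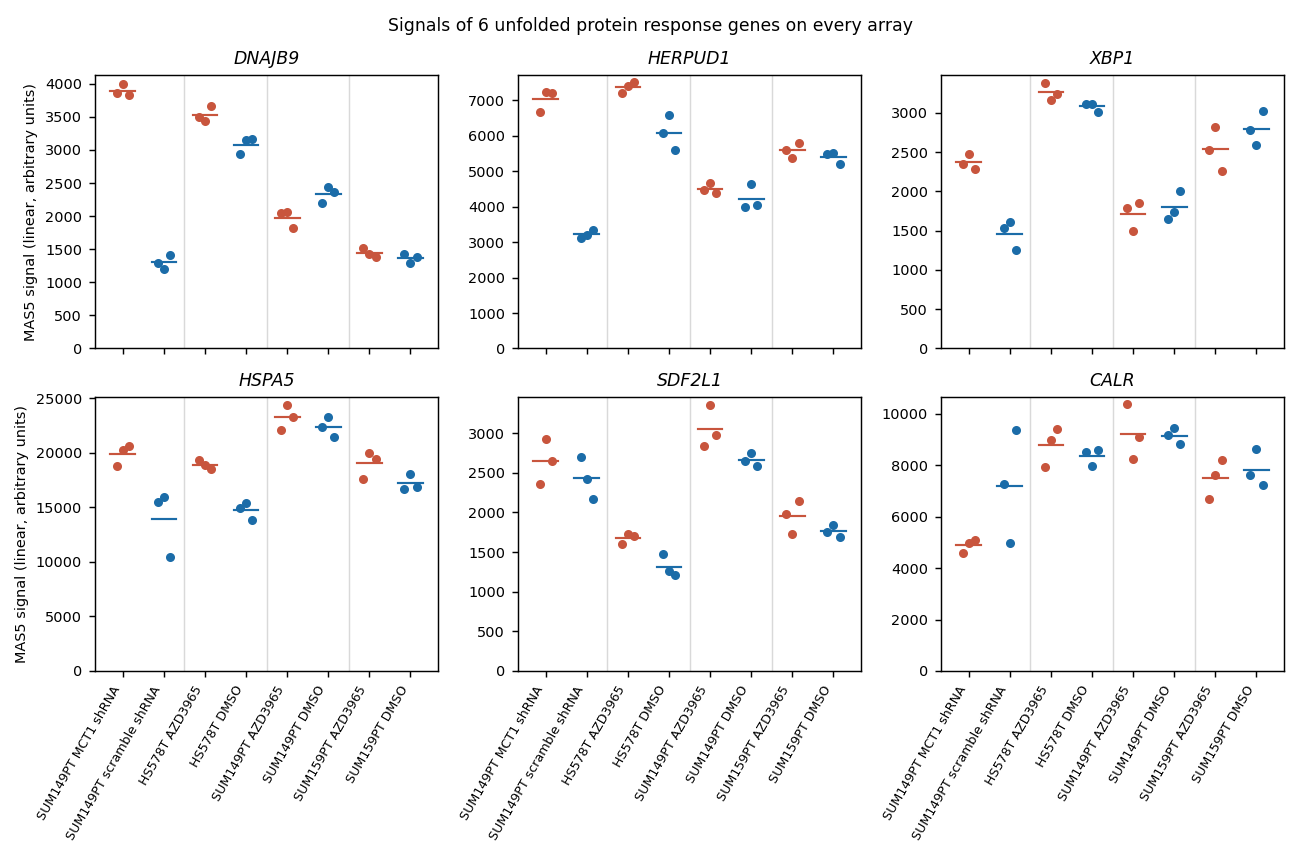
Each panel gives the linear MAS5 signal of 1 gene on all 24 arrays, with points for arrays and a line at the mean of each group. Red marks MCT1 shRNA or AZD3965 and blue its control. DNAJB9 and HERPUD1 separate clearly between the MCT1 shRNA and scramble arrays, SDF2L1 overlaps there, and the scramble arrays of CALR spread from 4977 to 9386 units.

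The control groups of the 2 experiments themselves lay apart for some genes. DNAJB9 had 2193, 2442 and 2357 units in SUM149PT under DMSO, above its scramble values and below its MCT1 shRNA values. HERPUD1 had 3994, 4642 and 4039 units under DMSO and likewise lay in between, as did XBP1. Every HSPA5 value under DMSO was above every MCT1 shRNA value. SEC24D under DMSO was above every scramble value and overlapped the MCT1 shRNA values. EIF2AK3 and CREB3L2 under DMSO overlapped their scramble values. The DMSO and scramble groups are both SUM149PT but come from different experiments, and they were not tested against each other.

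Other genes around the response were read from lists that were chosen with earlier results known. Beside the counts of each list stand 7.29% higher and 7.72% lower over all genes tested, with a median of -0.0037. Of 10 genes of the ATF4 arm, 7 rose with the MCT1 shRNA and none fell, with a median of 0.74. The activity of PERK was not measured, so a part of PERK in these rises was not tested. CHAC1, a glutathione-degrading enzyme, rose by 2.03 ± 0.17, NUPR1, a stress-induced chromatin protein, by 1.90 ± 0.15, and SESN2, a stress-induced inhibitor of mTORC1, by 1.63 ± 0.20. ATF4 averaged 15906 ± 2483 units with the MCT1 shRNA and 11277 ± 1186 with scramble (SD, n = 3 arrays each), at 0.49 ± 0.08 (limma adjusted p = 0.000225). DDIT3 (CHOP), the transcription factor of ER stress-induced death, rose by 0.67 ± 0.14 (limma adjusted p = 0.00157). ATF3 and the eIF2 alpha phosphatase subunits PPP1R15A and PPP1R15B did not pass. Without scramble array 3 the list again had 7 higher and none lower.

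The translocon, signal peptidase and oligosaccharyl transferase, which admit, cleave and glycosylate new proteins, gave 11 rises among 15 genes and no fall, with a median of 0.38, and 14 rises with a median of 0.39 without scramble array 3. STT3A, a catalytic subunit of the transferase, was at 1.61 ± 0.48 and at 0.50 without that array, SEC63, which ties BiP to the channel, at 0.70 ± 0.09 and SRPRB, a subunit of the signal recognition particle receptor, at 0.68 ± 0.08. Of 12 other ER folding factors, 5 rose, led by HSPA13 at 0.84 ± 0.07 and FKBP14 at 0.75 ± 0.12, and TMX1, a membrane thioredoxin, fell by 0.59 on the log2 scale. ERP29, also among the 5, was at 0.69 and at 0.29 without scramble array 3. COPII and Golgi transport gave 4 rises among 10, other ER degradation 2 among 8, and the processing of sensors 1 rise, MBTPS1 (site-1 protease), and 1 fall, MBTPS2 (site-2 protease), among 3.

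Chaperones of other compartments gave 4 calls among 15 genes, mostly falls, beside the 7.29% higher and 7.72% lower over all genes. Of 7 cytosolic heat shock genes none rose and 2 fell, HSPB1 by 0.52 and DNAJB1 by 0.31 on the log2 scale, with a median of -0.01. Without scramble array 3, the median was -0.15 and DNAJB1, at -0.18, was past the threshold no longer (limma adjusted p = 0.115). Of 8 mitochondrial chaperones and proteases, LONP1 rose by 0.42 and HSPE1 fell by 0.45 on the log2 scale (-0.23 without that array), with a median of 0.03.

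**Figure D3:**
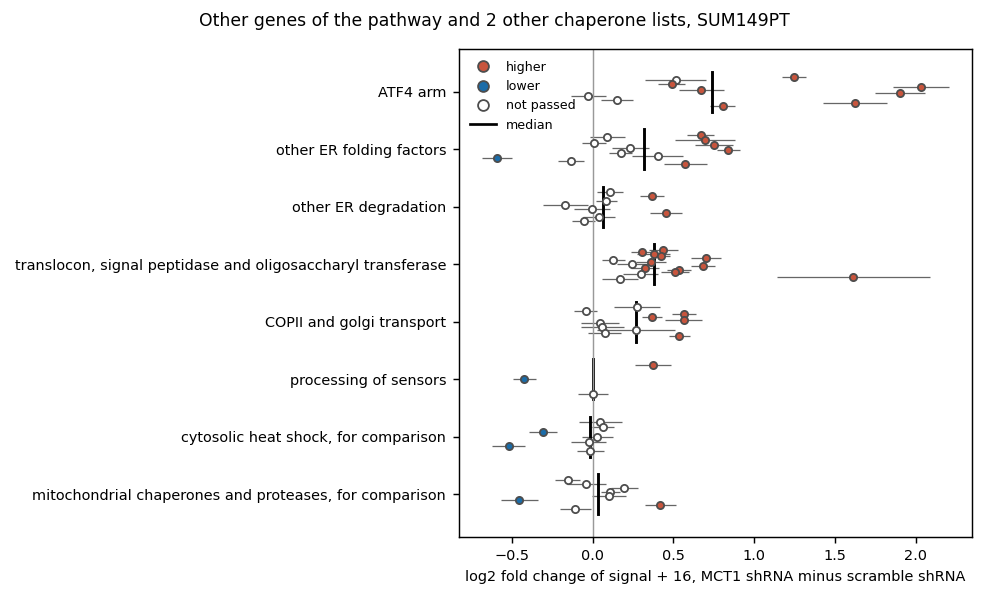
The horizontal axis is the log2 fold change of signal + 16 in SUM149PT, MCT1 shRNA minus scramble shRNA, for genes outside the 39, with 1 row per list. Points are genes with their standard errors, coloured where the adjusted p is under 0.05, and black lines are medians. The ATF4 arm has a median of 0.74 and the translocon list 0.38, while the cytosolic heat shock list is centred on -0.01.

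AZD3965 for 24 hours moved few of the genes. In HS578T, 1 of 37 rose and none fell, while 0.212% of all genes rose and 0.0991% fell. The median of the 37 was 0.08, against -0.02 over all genes, and 29 were above 0, against 45.2% of all genes. The gene that rose was MANF, a secreted ER stress factor, with 6487, 6611 and 7061 units with AZD3965, against 5480, 4899 and 5320 with DMSO. Every AZD3965 array was above every DMSO array, at 0.36 ± 0.07 (limma adjusted p = 0.0117). The call was lost without DMSO array 2 (0.31, limma adjusted p = 0.0827) and without AZD3965 array 3 (0.32, limma adjusted p = 0.107). At an unadjusted p under 0.05, 7 of the 37 were higher and none lower in HS578T, against 8.28% of all genes in either direction.

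Several other members of HS578T lay above their controls without passing. HSPA5 had 19316, 18864 and 18574 units with AZD3965, against 14957, 15428 and 13829 with DMSO, at 0.36 ± 0.10 (limma adjusted p = 0.199). With only these 6 arrays fitted, HSPA5 passed (limma adjusted p = 0.041) and MANF did not (limma adjusted p = 0.0681). SDF2L1 had 1608, 1726 and 1703 units with AZD3965, against 1470, 1263 and 1216 with DMSO, at 0.35 ± 0.10 (limma adjusted p = 0.159). Neither gene overlapped between the groups. HERPUD1 had 7206, 7392 and 7499 units with AZD3965, against 6058, 6585 and 5595 with DMSO, at 0.28 ± 0.07 (limma adjusted p = 0.104). DNAJB9 had 3494, 3435 and 3662 units with AZD3965, against 2938, 3145 and 3160 with DMSO, at 0.20 ± 0.07 (limma adjusted p = 0.396). XBP1 had 3383, 3171 and 3238 units, against 3117, 3115 and 3016 with DMSO, above in every array by 0.08 ± 0.10. The sensors ERN1, ATF6 and EIF2AK3 were at -0.16, -0.01 and 0.14, and all overlapped between groups.

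In SUM149PT none of the 37 passed in either direction with AZD3965, while 0.0212% of all genes rose and 0.00708% fell. All genes called numbered 4, and 652 without AZD3965 array 1. The median of the 37 was 0.05, against 0.04 over all genes, and 21 were above 0, against 57.5% of all genes. At an unadjusted p under 0.05, 4 were higher and 5 lower, against 16.5% of all genes in either direction. WFS1 had 540, 641 and 725 units with AZD3965, against 460, 557 and 518 with DMSO, at 0.30 ± 0.11 (limma adjusted p = 0.198). SELENOS had 9107, 9331 and 9923 units, against 7857, 8715 and 8638 with DMSO, at 0.17 ± 0.07 (limma adjusted p = 0.212). Of these, SELENOS did not overlap between groups and WFS1 did.

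Towards lower signal, EIF2AK3 had 920, 699 and 754 units in SUM149PT with AZD3965, against 1055, 970 and 1103 with DMSO, at -0.40 ± 0.12 (limma adjusted p = 0.148). DNAJB9 had 2042, 2067 and 1820 units, against 2193, 2442 and 2357 with DMSO, at -0.24 ± 0.07 (limma adjusted p = 0.156). Neither overlapped between groups. Without AZD3965 array 1, EIF2AK3 passed as lower (-0.51, limma adjusted p = 0.0238), SEC24D passed as lower (-1.03, limma adjusted p = 0.0159) and WFS1 passed as higher (0.41, limma adjusted p = 0.0476). In that fit 4.62% of all genes were called. HSPA5, with 22068, 24433 and 23328 units against 22422, 23323 and 21425 with DMSO, overlapped at 0.06. HERPUD1 had 4453, 4673 and 4369 units, against 3994, 4642 and 4039 with DMSO, and XBP1 had 1795, 1498 and 1850 units, against 1654, 1741 and 2004 with DMSO. Both overlapped, at 0.09 and -0.07. SDF2L1 had 2834, 3348 and 2978 units, against 2649, 2747 and 2580 with DMSO, without overlap, at 0.20 ± 0.10 (limma adjusted p = 0.323). ERN1 was at 0.27 and ATF6 at -0.13.

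In SUM159PT none of the 37 passed either, and no gene on the arrays did (0% higher and 0% lower of 14127). Above 0 were 24 of the 37, against 50.7% of all genes. At an unadjusted p under 0.05, 2 of the 37 were higher and 1 lower, against 958 genes or 6.78% of all. HYOU1 had 2253, 2495 and 2566 units with AZD3965, against 1778, 2005 and 2168 with DMSO, above in every array at 0.30 ± 0.12 (limma adjusted p = 0.726). CRELD2 had 5718, 5454 and 7042 units, against 4965, 5502 and 4686 with DMSO, which overlapped, at 0.26 ± 0.10. EIF2AK3 had 1068, 995 and 760 units, against 1195, 1085 and 1067 with DMSO, at -0.25 ± 0.12, and its arrays overlapped by little. SEC24D had 1078, 1211 and 774 units, against 1395, 1272 and 1482 with DMSO, at -0.45 ± 0.23 with no overlap.

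The 5 genes followed throughout stayed close to their controls in SUM159PT, at 0.14 for HSPA5, -0.14 for XBP1, 0.07 for DNAJB9, 0.05 for HERPUD1 and 0.14 for SDF2L1. HSPA5 had 17609, 20026 and 19470 units with AZD3965, against 16726, 18109 and 16904 with DMSO. XBP1 had 2528, 2818 and 2260 units, against 2777, 2588 and 3027 with DMSO, and DNAJB9 had 1515, 1427 and 1378 units, against 1432, 1292 and 1375 with DMSO. HERPUD1 had 5606, 5366 and 5802 units, against 5485, 5516 and 5206 with DMSO. SDF2L1 had 1986, 1728 and 2143 units, against 1757, 1847 and 1690 with DMSO. All 5 overlapped between groups. ERN1 was at 0.26 and ATF6 at -0.10.

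Averaged over the 3 lines, none of the 37 passed with AZD3965, while 0.0283% of all genes rose and 0% fell. At an unadjusted p under 0.05, 11 of the 37 were higher and 3 lower, against 14.6% of all genes in either direction. MANF was at 0.18 ± 0.04 (limma adjusted p = 0.0781), and at 0.18 with an adjusted p of 0.0442 (limma) without SUM149PT AZD3965 array 1, a fit that called 71 genes in all, against 4. SDF2L1 was at 0.23 ± 0.06 (limma adjusted p = 0.15). Lower in the average were EIF2AK3 at -0.17 ± 0.07 and SEC24D at -0.33 ± 0.13, with adjusted p-values of 0.255 and 0.263 (limma). The effect of AZD3965 differed between the lines for none of the 37 by the F test of limma, against 0.12% of all genes, with 5 of the 37 at an unadjusted p under 0.05, against 10.1% of all genes. None of the other pathway or chaperone genes listed above passed in any of the 3 lines.

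**Figure D4:**
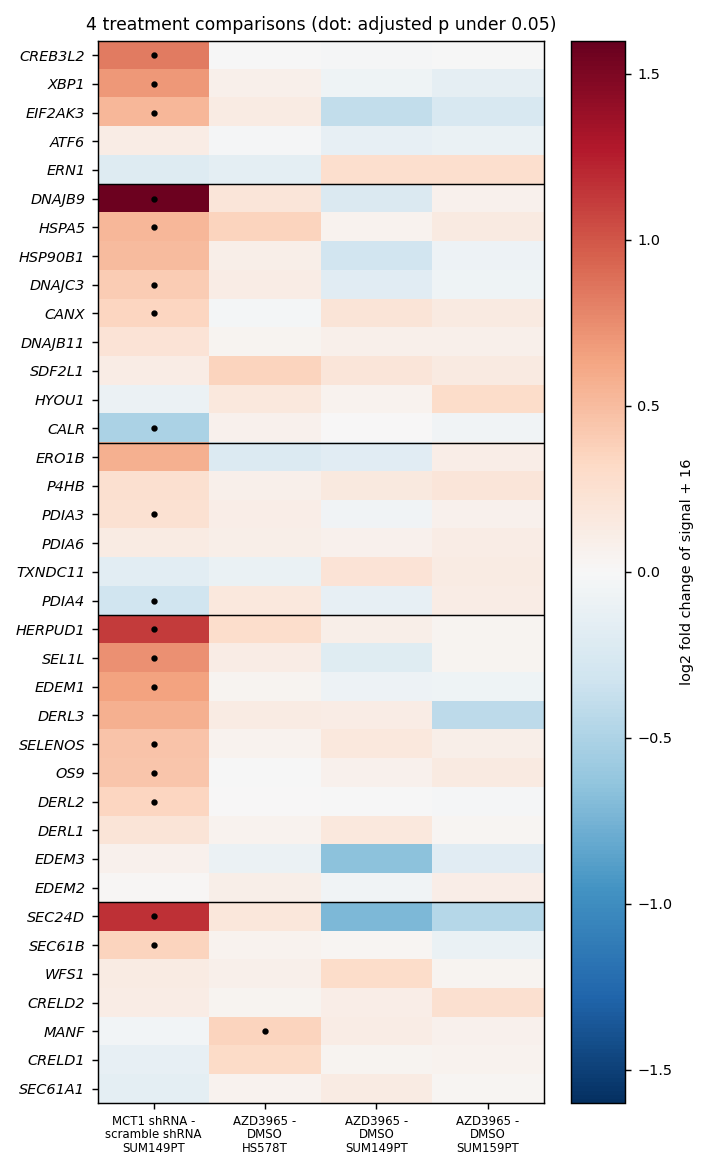
Rows are the 37 genes by role and columns the 4 treatment comparisons, coloured by the log2 fold change of signal + 16 from -1.6 (blue) to 1.6 (red), with a dot where the adjusted p is under 0.05. The shRNA column holds 18 dots, HS578T with AZD3965 holds 1 at MANF, and the other columns hold none.

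Within SUM149PT the effect of the shRNA could be set against that of the inhibitor, each taken against its own control. The shRNA effect was higher than the AZD3965 effect for 13 of the 37 genes and lower for none, against 4.64% and 4.96% of all genes. By role these were 3 of 5 sensors and transcription factors, 3 of 9 chaperones, 1 of 6 foldases, 5 of 10 degradation factors and 1 of 7 others. DNAJB9 had the smallest p, at 1.81 ± 0.10 (limma adjusted p = 8.57e-11), with a rise under the shRNA and a value below its control under AZD3965. EIF2AK3 differed by 0.93 ± 0.17 (limma adjusted p = 0.000949). HSPA5, at 0.48 ± 0.15 (limma adjusted p = 0.0422), was at 0.28 without scramble array 3 (limma adjusted p = 0.0623). With the mean of all probe sets, HERPUD1 was at 0.30, EIF2AK3 at 0.53, CREB3L2 at 0.43 and XBP1 at 0.88, and none of these passed (limma adjusted p from 0.199 to 0.456). For HERPUD1, EIF2AK3 and XBP1, the only other probe set lay below the signal level required for testing, unlike those of CREB3L2. Mean signals there, MCT1 shRNA against scramble, were 5.92 and 6.11 units for HERPUD1, 10.8 and 16.7 for EIF2AK3 and 38.4 and 9.74 for XBP1. The treatments also differ in duration, in puromycin selection and in their controls, and these cannot be told apart from the kind of MCT1 loss.

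Under DMSO the 3 lines differed for 31 of the 37 genes by the F test of limma, against 77.2% of all genes tested. CALR, CANX, P4HB, PDIA4, DERL3 and EIF2AK3 did not pass. Between HS578T and SUM149PT, 19 genes were higher in HS578T and 12 lower, against 30.5% and 34% of all genes. Between HS578T and SUM159PT, 14 were higher in HS578T and 6 lower, against 27.4% and 30.8% of all. Between SUM149PT and SUM159PT, 16 were higher in SUM149PT and 12 lower, against 30.1% and 29.5% of all.

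CREB3L2 ran highest in HS578T, with 5729, 5139 and 5226 units in HS578T, against 828, 619 and 800 in SUM149PT and 2846, 2910 and 2514 in SUM159PT. No pair of lines overlapped, and the log2 differences were 2.82 ± 0.15 for HS578T minus SUM149PT and -1.87 ± 0.15 for SUM149PT minus SUM159PT. SEC24D was low in SUM149PT, with 295, 300 and 433 units there, against 1395, 1272 and 1482 in SUM159PT. In HS578T, with 1066, 1453 and 1939 units, it did not separate from SUM159PT (0.06 ± 0.23, limma adjusted p = 0.837) and was above SUM149PT by 2.05 ± 0.23. SEC61A1 had 8335, 7881 and 7859 units in HS578T, against 1927, 2293 and 2083 in SUM149PT and 3029, 3188 and 3473 in SUM159PT. The HS578T arrays were above both other lines, by 1.93 ± 0.10 and 1.31 ± 0.10. EDEM3, a mannosidase of glycoprotein degradation, had 1256, 606 and 587 units in SUM149PT, against 2190, 1813 and 2251 in SUM159PT, at -1.42 ± 0.23.

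Other genes had the opposite order. ERO1B had 46.7, 62.3 and 57.3 units in HS578T, against 358, 362 and 238 in SUM149PT and 133, 147 and 168 in SUM159PT. No lines overlapped for it, and HS578T was lower by 2.21 and 1.21 on the log2 scale than SUM149PT and SUM159PT (SE 0.28 each). ERN1 had 195, 111 and 199 units in HS578T, against 464, 535 and 583 in SUM149PT and 243, 275 and 229 in SUM159PT. The order for ERN1 was SUM149PT, SUM159PT, HS578T, with differences of -1.59 ± 0.15 for HS578T minus SUM149PT and -0.56 ± 0.15 for HS578T minus SUM159PT. SDF2L1 had 1470, 1263 and 1216 units in HS578T, against 2649, 2747 and 2580 in SUM149PT, at -1.01 ± 0.10. MANF had 5480, 4899 and 5320 units in HS578T, against 7775, 7821 and 7761 in SUM159PT, at -0.57 ± 0.07.

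DERL2 had 2988, 2910 and 2684 units in HS578T and 3282, 3564 and 3316 in SUM149PT, against 1222, 1280 and 1167 in SUM159PT. Both lines lay above SUM159PT, by 1.21 ± 0.06 and 1.46 ± 0.06. WFS1 had 1006, 967 and 963 units in HS578T, against 416, 394 and 394 in SUM159PT, at 1.25 ± 0.11. ATF6 was higher in HS578T than in SUM149PT by 0.87 ± 0.10, did not differ past the threshold between HS578T and SUM159PT (0.17 ± 0.10, limma adjusted p = 0.16), and was lower in SUM149PT than in SUM159PT by 0.70 on the log2 scale. EIF2AK3 stood at 0.30, 0.20 and -0.10 in the same comparisons, and its call for HS578T against SUM149PT (limma adjusted p = 0.0311) was lost on leaving out HS578T array 2 or 3 or SUM149PT array 1 or 2, with values between 0.21 and 0.31. All line comparisons of a gene share arrays, so their values are given side by side.

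**Figure D5:**
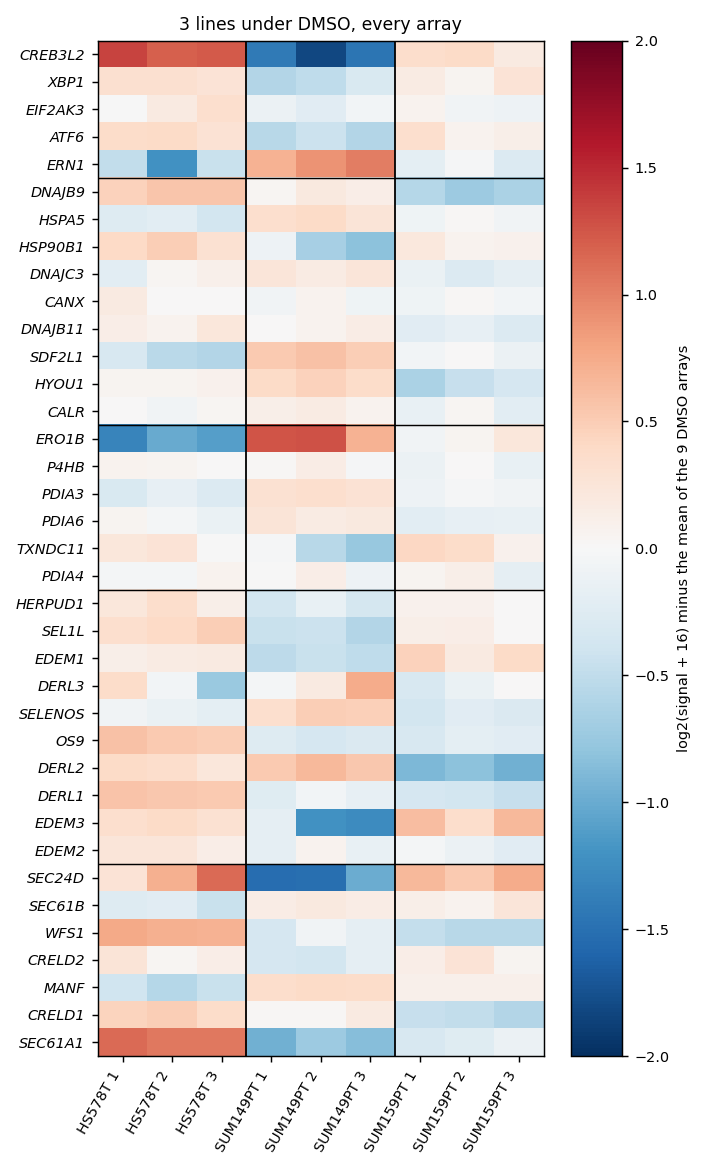
Rows are the 37 genes by role and columns the 9 DMSO arrays, coloured by log2(signal + 16) minus the mean of the gene over the 9 arrays, from -2 (blue) to 2 (red). CREB3L2 and SEC61A1 are red in HS578T, ERN1 and ERO1B in SUM149PT, and DERL2 is blue in SUM159PT.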

How the data were processed

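RNA of 24 samples was hybridised to Affymetrix arrays. The deposited values are linear signal intensities, made with MAS5 per the submitters' processing notes, whose version and settings were not given in the sources used here. The arrays share 1 scaling, with trimmed means of 500.07 to 500.08, and every column was assigned to a sample.

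Of 54675 probe sets, 41097 had 1 gene symbol in the platform annotation, 1801 several and 11777 none; 41043 symbols were updated by gene ID against RefSeq (GRCh38.p14). The probe set of highest mean signal stood for each of 19775 genes, and 14127 genes were tested, those whose mean log2(signal + 16) reached 5.58, the 40th percentile taken over every probe set. All 37 measured members passed.

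limma 3.58.1 in R 4.3.3 fitted 8 group means to the 24 arrays with an intensity trend (16 residual degrees of freedom, prior 6.48), and p-values were adjusted by Benjamini-Hochberg over all genes tested and called under 0.05. The fit was tested on simulated data. Alternatives were quantile normalization, median centring, offsets of 1 and 64, no filter, a 60th percentile filter, the mean of all probe sets of a gene, only the arrays compared, the replicate number as a block, and each array left out in turn. The mean of all probe sets counted each probe set equally, however dim.

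The members, their roles and the other gene lists were chosen with earlier results of these data known, so no p is adjusted over a list. Signals of every array are given for 5 fixed members, for called members without overlap by size (up to 6 each way for the shRNA, 3 otherwise) and, where none was called, for the 2 of smallest p each way. Other members are given by estimate. Of the other lists, up to 3 called genes each way were named. Beyond these rules, array values of CALR, SEC61B, HSP90B1, EDEM1 and PDIA3 and the values of ATF4 and DDIT3 were chosen after their values were seen. Array number limits the precision, and probe sets with an _x suffix can cross-hybridise. Promoter windows came from RefSeq, with no row for DERL1, DERL3, SEC24D and PDIA3, and every listed start of a gene was searched on both strands.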

Additional observations from a re-analysis of the deposited data

Results flagged for a closer look

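In SUM149PT, 13 genes of the unfolded protein response differed between the effect of the MCT1 shRNA and the effect of AZD3965, each taken against its own control (limma, a test of the difference itself, adjusted p under 0.05 over all genes). On the log2 scale the shRNA effect exceeded the AZD3965 effect by 1.89 for SEC24D, 1.81 for DNAJB9, 1.03 for HERPUD1, 0.93 for EIF2AK3, 0.92 for SEL1L, 0.85 for CREB3L2, 0.77 for XBP1, 0.73 for EDEM1, 0.59 for DNAJC3, 0.48 for HSPA5, 0.38 for OS9, 0.36 for DERL2 and 0.30 for PDIA3. All 13 rose with the shRNA, and 10 of them (all but HERPUD1, HSPA5 and OS9) had a mean below their control with AZD3965, where none passed. HSPA5 did not pass in 10 of the 12 fits that left out 1 array. PDIA3 and OS9 were also lost in some of these fits. Without AZD3965 array 3, PDIA3 had an adjusted p of 0.0777 (limma), and without AZD3965 array 2, OS9 had 0.0573 (limma). Median centring lost HSPA5, PDIA3, OS9, DERL2 and DNAJC3 (limma adjusted p from 0.078 to 0.377).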

How the results depend on the processing

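The shRNA calls kept their side of the threshold for 18 of 18 genes under quantile normalization, both offsets, no filter, the 60th percentile filter and the replicate block. Median centring kept 12 (without CANX, DERL2, DNAJC3, EIF2AK3, PDIA3 and SEC61B), the mean of probe sets 15 of its 18 (without CALR, DNAJC3 and EIF2AK3), and only the 6 arrays 14 (without CALR, HSPA5, PDIA3 and SEC61B). Leaving out 1 array gave 16 to 20 members called for the shRNA, 0 to 1 for AZD3965 in HS578T, 0 to 3 in SUM149PT, 0 to 0 in SUM159PT, 0 to 1 in the average, 0 to 0 for the difference between lines, 11 to 15 for shRNA minus AZD3965, 27 to 30, 16 to 20 and 25 to 28 for the line pairs in the order of the report, and 29 to 31 for the 3 lines. For shRNA minus AZD3965, 8 members were called under median centring and 8 with the mean of probe sets, against 13; the cause was not tested. All genes called went from 2120 to 864 for the shRNA with only its 6 arrays (fewer samples), and from 1356 to 517 for shRNA minus AZD3965 under median centring, 831 with the mean of probe sets and 763 with only its arrays. For AZD3965 in HS578T they went from 44 to 26 with the mean of probe sets and, with 1 array left out, to between 15 and 33. Leaving out 1 array gave 2 to 652 genes for AZD3965 in SUM149PT (652 without AZD3965 array 1, at most 17 otherwise, against 4), 0 to 71 for the average (71 without the same array, at most 14 otherwise, against 4), 3 to 46 for the difference between lines (46 without it, against 17) and 0 to 4 in SUM159PT (10 with an offset of 1). Median centring moved the median of all genes to -0.12 for the shRNA, 0.14 for AZD3965 in HS578T and -0.12 for HS578T against either other line, and the HS578T AZD3965 split to 32 higher and 1 lower, against 30 and 14. Of the fold changes of members named by the rule, 1081 kept their side of the threshold under alternatives, 13 lost it and 4 gained it. None that passed in either fit changed sign, and sign changes of those that passed in neither were not counted. Outside the rule, CALR, SEC61B and PDIA3 lost their shRNA call in 5, 5 and 2 fits and HSP90B1 gained one in 1. The mean of probe sets turned the sign of SEC61A1 for the shRNA, of CALR (0.23, against -0.13), DNAJC3 (0.15, against -0.24) and HSPA5 (0.43, against -0.60) for HS578T minus SUM149PT, of HERPUD1 (-0.28, against 0.17) and SEC61B (0.03, against -0.45) for HS578T minus SUM159PT, and of DERL1 (-0.12, against 0.23) and HSPA5 (-0.22, against 0.38) for SUM149PT minus SUM159PT. CALR and HSPA5 passed as higher in HS578T than in SUM149PT there (limma adjusted p = 0.00448 and 0.0048).

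Deviations of same-numbered arrays from their group means correlated weakly (r from -0.128 to 0.228), with no treatment comparison over 0.1 in all 3 pairs. All 3 were positive for SUM149PT AZD3965 with DMSO (0.081, 0.046 and 0.063). The same held for SUM149PT with SUM159PT under DMSO (0.154, 0.069 and 0.228), and signs were mixed elsewhere. With 3 arrays a group, these values cannot settle whether the numbers pair the samples. With the replicate block, 18 members were called for the shRNA, 0 for AZD3965 in HS578T (against 1, MANF at an adjusted p of 0.116 by limma), 0 in SUM149PT, 0 in SUM159PT, 0 in the average, 0 for the difference between lines, 9 for shRNA minus AZD3965, 31, 20 and 28 for the line pairs and 31 for the 3 lines, and all genes called for AZD3965 in HS578T went from 44 to 8. Dim members such as DERL3 and ERO1B have wide standard errors, 0.30 and 0.28 on the log2 scale.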
